A study of Mus musculus with 8 samples.

Results

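The TGF-beta and activin signalling genes described here are 10 genes, namely the ligand genes Tgfb1, Tgfb3 and Inhba, the receptor genes Tgfbr1, Tgfbr2 and Acvr1b, the transducer gene Smad3, the inhibitor genes Smad7 and Skil, and the target gene Tgfbi. They were chosen by name, with earlier results of these data known. All probes whose transcript accession belongs to them were taken, which gave 14 of the 55681 probes outside the controls. All 10 genes had a probe, out of 20887 genes that could be matched, and all 10 entered the test of 12707 genes. The study measured total RNA of mouse dendritic cells grown from bone marrow of C57BL/6 females, on single-colour arrays. Of the 8 samples, 4 were cells given lipopolysaccharide (LPS, a bacterial surface molecule sensed by a Toll-like receptor) at 50 ng/ml overnight and collected on day 7. The other 4 were immature cells on day 6 of culture, and both groups had grown in GM-CSF at 10 ng/ml with IL-4. No culture was kept to day 7 without LPS, so LPS and the further night cannot be told apart. The labels do not say whether the 4 samples of a group were separate animals or cultures, and if they were not, the p-values measure a spread that may be technical.

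TGF-beta and activin are secreted dimers that bind a type II receptor, which then activates a type I receptor (Tgfbr1 for TGF-beta, Acvr1b for activin). The type I receptor phosphorylates Smad2 and Smad3, which enter the nucleus with Smad4, while Smad7 and the corepressor encoded by Skil (SnoN) limit the signal. In dendritic cells TGF-beta is known for restraining maturation and for supporting Langerhans cells, and activin A, the homodimer of the Inhba product, is known to be secreted by myeloid cells after Toll-like receptor stimulation.

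Values are log2 processed signals relative to the 75th percentile of each array, so 0 is the level of that percentile and 1 unit is a doubling. Each gene is represented by its brightest probe, levels are compared only between arrays and not between genes, and a change is called at a limma adjusted p (Benjamini-Hochberg over all tested genes) under 0.05. The 75th percentile of the unscaled processed signal was 392 to 421 on the LPS arrays and 450 to 491 on the immature arrays (p = 0.0286 in a two-sided exact permutation test, which cannot give a lower p with 4 against 4 arrays), and the slope of the spike-in signals also differed (0.966 to 0.986 against 0.940 to 0.954, exact permutation p = 0.0286). No spot was saturated, and the LPS and immature samples lay in different rows of the 1 slide, so slide row and treatment cannot be told apart. Immature replicate 3 stood apart: over genes, its difference from each other immature array had a robust SD (from the median absolute deviation) of 0.276 to 0.424 log2, against 0.112 to 0.240 among the other immature pairs and 0.132 to 0.237 among the LPS pairs. In both groups the closest pair was replicates 1 and 2 (0.132 among the LPS arrays and 0.112 among the immature arrays), so 4 per group may overstate the number of independent samples behind the p-values. All 10 dendritic cell markers examined, among them Itgax, Cd74, Flt3 and Zbtb46, were above background on all 8 arrays. Of these 10, 5 rose (Flt3, Zbtb46, Ccr7, Cd86 and Cd40), 3 fell (Itgax by 0.99, H2-Aa by 0.75 and Cd74 by 0.46 log2) and 2 did not pass. The Zbtb46 call was lost when arrays were scaled by their median (0.53, limma adjusted p = 0.0548) or not scaled (0.50, 0.0689). It was also lost with the mean of the gene's probes (0.47, 0.0554). The 3 tested mast cell and basophil markers and the 2 tested natural killer cell markers fell, and their part in the results was not tested. The arrays measure bulk RNA, in which fewer cells of a type and less RNA per cell cannot be told apart.

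After LPS, Inhba rose 11.4-fold, and Skil, Tgfbi, Acvr1b, Smad3 and Smad7 rose by between 1.72-fold (Smad7) and 3.27-fold (Skil). The receptor genes Tgfbr1 and Tgfbr2 fell, by 1.03 and 0.59 log2, and Tgfb1 fell by 0.40 log2. Tgfb3 did not pass the test. Thus 9 of the 10 genes were called changed, 6 upward and 3 downward, where 56.1% of all tested genes were called, 31.4% upward and 24.7% downward. For 8 of the 10 genes no value of a group fell within the range of the other, 6 with LPS higher and 2 with LPS lower, where 52.4% of all tested genes had such groups, 30.1% with LPS higher and 22.3% with LPS lower. Called changes of at least 2-fold were found upward in 4 of the 10 genes (Inhba, Skil, Tgfbi and Acvr1b) and downward in 1 (Tgfbr1), beside 9.15% and 8.76% of all tested genes. The median change of the 10 genes was 0.82 log2 and that of all tested genes 0.06. Because the 10 genes were chosen with earlier results of these data known, these shares describe the list and are not a test of it. The direction of each of the 10 genes was the same under all 18 alternative settings, the 4 other scalings included, and 8 of the 9 called genes passed the test under all 18, Tgfb1 being the exception. Over all genes, the share of calls that were increases moved with the scaling. It was 56.0% as reported, and 38.4% with scaling to the array median, 35.3% with no scaling, 49.9% with scaling to detected probes and 50.9% with quantile normalization. Median scaling and no scaling moved the median change of all genes by −0.18 and −0.21 log2.

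**Figure D1:**
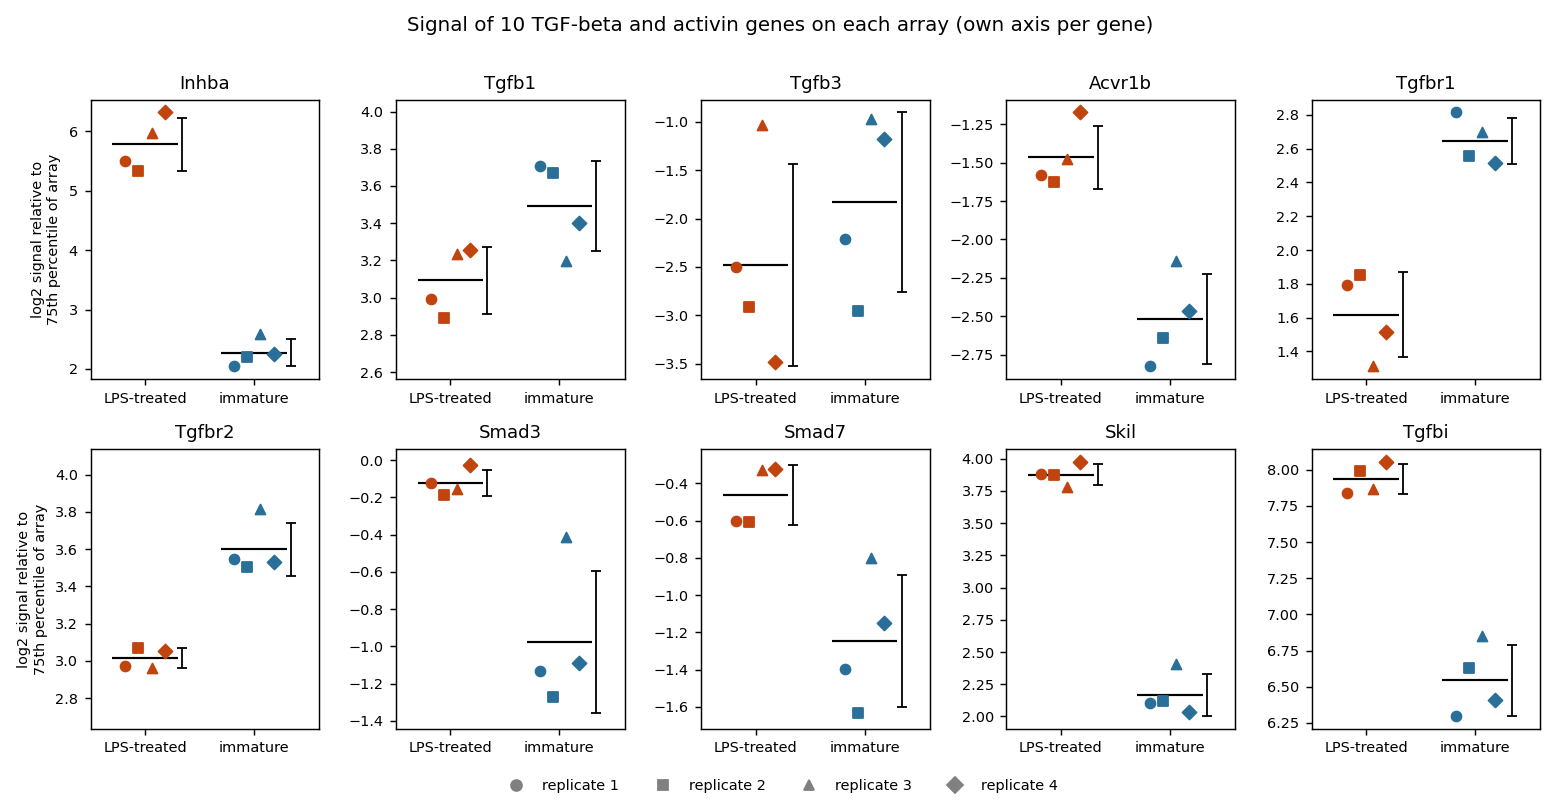
Log2 signal of the brightest probe of each of the 10 genes, relative to the 75th percentile of the array, on the 4 LPS-treated arrays (left, red) and the 4 immature arrays (right, blue). Marker shapes give the replicate number, horizontal lines the group mean and error bars the SD (n = 4). The groups overlap for Tgfb1 and Tgfb3 and are apart for the other 8 genes.

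Inhba encodes the beta A subunit, whose homodimer is activin A. Its signal on the LPS arrays was 5.50, 5.33, 5.98 and 6.32 in replicates 1 to 4, against 2.05, 2.20, 2.59 and 2.25 on the immature arrays. Every LPS array was thus far above every immature array. The change was 3.51 ± 0.22 log2 (SE, 4 arrays per group), with a limma adjusted p of 7.96e-06, which placed Inhba 113th by increase among the 12707 genes. The LPS arrays were less uniform than the immature ones, with means of 5.78 ± 0.45 and 2.27 ± 0.23 (SD). The change stayed between 3.30 and 3.66 log2 under the 18 alternatives. The 3 genes outside the list whose values over the 8 arrays were most like those of Inhba were Il12a (Pearson r = 0.998), Traf6 (0.998) and Il6 (0.997). This likeness is a description: the 8 arrays form 2 groups, and 1121 tested genes had r over 0.95 with Inhba.

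Promoter windows of the genes with the largest increase and decrease are shown. The windows run from 250 bases before to 50 bases after a gene's annotated start (RefSeq, build GRCm38.p6), and 8 windows were at hand for 7 of the genes. Tgfb3, Skil and Smad7 are named only. Besides Inhba and Tgfbr1, the share of G and C was 79.7%, 67.7% and 63.3% for Acvr1b, Smad3 and Tgfbi, which rose. It was 77% and 59% for Tgfb1 and Tgfbr2, which fell. The Inhba window lies at chr13:16011601-16011900 on the plus strand, with 47.7% G and C (median of all 32851 windows 52.7%) and 7 CpG. Capitals mark a TATAAA box that begins 91 bases before the start. It was the 1 TATAAA among the 8 windows, and 13.6% of all windows hold one on either strand.
Inhba: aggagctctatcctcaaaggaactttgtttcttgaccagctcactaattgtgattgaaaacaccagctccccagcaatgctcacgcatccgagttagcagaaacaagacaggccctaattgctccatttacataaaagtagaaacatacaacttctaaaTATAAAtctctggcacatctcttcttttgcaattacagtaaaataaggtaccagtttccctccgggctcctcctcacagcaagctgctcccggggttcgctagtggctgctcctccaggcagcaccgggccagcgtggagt
The second of the 2 Tgfbr1 windows, not printed, has 52% G and C and 3 CpG. The first, at chr4:47352972-47353271 on the plus strand, has 74.7% G and C and 34 CpG. Capitals mark the GC boxes (GGGCGG, either strand), found in 5 of the 8 windows and in 35.7% of all.
Tgfbr1: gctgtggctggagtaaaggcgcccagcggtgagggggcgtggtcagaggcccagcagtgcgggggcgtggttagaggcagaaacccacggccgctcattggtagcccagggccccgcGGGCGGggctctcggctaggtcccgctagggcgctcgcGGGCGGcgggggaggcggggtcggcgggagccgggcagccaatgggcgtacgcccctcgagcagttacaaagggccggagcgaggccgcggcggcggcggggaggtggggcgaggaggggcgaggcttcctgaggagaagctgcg
On both strands, the letters TGANTCA (AP-1), TGACGTCA (CRE) and GTCTAGAC (Smad palindrome) were in 0 of the 8 windows and in 7.81%, 1.79% and 0.213% of all.  These are matches of letters and say nothing about binding.

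Tgfb1 encodes the TGF-beta isoform typical of blood cells, made in a latent form. On the LPS arrays it had 2.99, 2.89, 3.23 and 3.26, against 3.71, 3.67, 3.20 and 3.40 on the immature arrays. The groups overlapped, because immature replicate 3 lay below LPS replicates 3 and 4. The fall of 0.40 ± 0.14 log2 (SE, 4 arrays per group), with a limma adjusted p of 0.0383, was small, and the call rested on single arrays. It was lost without immature replicate 1 (−0.33, adjusted p = 0.0985), 2 (−0.34, 0.0977) or 4 (−0.43, 0.0571), or without LPS replicate 1 (−0.37, 0.0939) or 2 (−0.33, 0.0997), and it held without immature replicate 3 (−0.50, 0.0101). With all alternatives together, the adjusted p of Tgfb1 ran between 0.0101 and 0.199. Platelets are known to store TGF-beta 1. Of 5 platelet markers Pf4 and Ppbp rose, Itga2b fell and 2 did not pass, the Ppbp call (0.56 log2) being lost under each of the 4 other scalings (0.35 to 0.51) and without LPS replicate 1, 2 or 3 or immature replicate 1, 2 or 4 (0.44 to 0.62). The 2 that did not pass were Gp9 (−1.56 log2) and Gp1bb (−0.06). The summed signal of the 5 markers, in multiples of the 75th percentile, was 297 to 352 on the LPS arrays and 161 to 202 on the immature arrays. Pf4 was by far the brightest (8.08 to 8.35 log2 on the LPS arrays, 7.14 to 7.43 on the immature arrays), so the sum mostly follows Pf4. The part of platelets in the result was not tested.

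Tgfb3, the isoform known mostly from mesenchymal tissues, was above background on all 8 arrays but varied more than almost any other gene. It had −2.50, −2.91, −1.03 and −3.48 on the LPS arrays, against −2.21, −2.95, −0.97 and −1.18 on the immature arrays. LPS replicate 3 and immature replicates 3 and 4 were high and the other 5 arrays low, so the high arrays came from both groups. The SD within groups was 0.99 log2, larger than that of 99.4% of the tested genes (median 0.18). The difference was −0.65 ± 0.60 log2 (SE; limma adjusted p = 0.379) and ran between −1.13 and −0.27 over the alternatives, none of which passed.

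Acvr1b (ALK4), the type I receptor of activin, rose. Its signal was −1.58, −1.63, −1.48 and −1.17 on the LPS arrays, against −2.83, −2.64, −2.14 and −2.47 on the immature arrays, with no overlap. The change was 1.05 ± 0.16 log2, or 2.07-fold (limma adjusted p = 0.000814), and 0.76 log2 with the normexp background correction, its lowest value.

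Tgfbr1 (ALK5), the type I receptor of TGF-beta, moved the other way. Its brighter probe had 1.79, 1.85, 1.31 and 1.52 on the LPS arrays, against 2.81, 2.56, 2.70 and 2.52 on the immature arrays. All LPS values lay below all immature values. The fall of 1.03 ± 0.13 log2 (limma adjusted p = 0.000338) was matched on the dimmer probe, which fell by 1.24 ± 0.14 (adjusted p = 0.000161 over all tested probes, of which 49.7% were called, 26.0% upward and 23.7% downward). Tgfbr2, the type II receptor that binds TGF-beta first, had 2.97, 3.07, 2.96 and 3.05 on the LPS arrays, against 3.55, 3.50, 3.81 and 3.53 on the immature arrays. The 4 LPS values were close together and all below the immature ones. It fell by 0.59 ± 0.09 log2 (limma adjusted p = 0.000671) on this probe and by 0.46 ± 0.10 on the dimmer one (adjusted p = 0.00451 over all tested probes). Over the 8 arrays, Sema4d (Pearson r = 0.997) and Rpl36al (0.992) were among the 3 genes most like Tgfbr1, with 258 tested genes over 0.95.

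Among the transducers and inhibitors, Smad3 rose to −0.12, −0.19, −0.16 and −0.02 on the LPS arrays, against −1.13, −1.27, −0.41 and −1.09 on the immature arrays. The groups did not overlap, and immature replicate 3 was closest to the LPS arrays. The change was 0.85 ± 0.18 log2 (limma adjusted p = 0.00354), and 1.04 log2 without immature replicate 3 (adjusted p = 3.9e-05). A second Smad3 probe was above background on 0 arrays and has no usable value. Smad7, the inhibitory Smad that blocks type I receptors and is itself induced by TGF-beta, had −0.60, −0.61, −0.33 and −0.32 on the LPS arrays, against −1.40, −1.63, −0.80 and −1.15 on the immature arrays. Again no values overlapped and immature replicate 3 was the highest immature array. Smad7 rose by 0.78 ± 0.18 log2 (limma adjusted p = 0.00551), and by 0.93 without immature replicate 3 (adjusted p = 0.000877).

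Skil, whose product SnoN binds Smads and represses their targets, was the steadiest of the increases. Its brighter probe had 3.88, 3.87, 3.78 and 3.97 on the LPS arrays, against 2.11, 2.12, 2.40 and 2.04 on the immature arrays. The change was 1.71 ± 0.10 log2, or 3.27-fold (limma adjusted p = 4.41e-06). The dimmer probe rose by 1.91 ± 0.09 (adjusted p = 2.68e-06 over all tested probes). For 7 of the 9 called genes immature replicate 3 was the immature array nearest to the LPS mean, the exceptions being Tgfbr1 and Tgfbr2, and the same held for 52.4% of all called genes.

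Tgfbi encodes a secreted matrix protein named for its induction by TGF-beta and known to be abundant in monocytes and macrophages. It had 7.84, 8.0, 7.87 and 8.05 on the LPS arrays, against 6.30, 6.63, 6.85 and 6.41 on the immature arrays. The LPS arrays were close together and all above the immature ones. Tgfbi rose by 1.39 ± 0.13 log2, or 2.63-fold (limma adjusted p = 5.16e-05), with means of 7.94 ± 0.10 and 6.55 ± 0.25 (SD). Of 5 monocyte markers 4 fell and 1, Cd14, rose, and of 7 macrophage markers 3 fell, 1 rose and 3 did not pass. The summed signal of the monocyte markers was 347 to 429 on the LPS arrays and 378 to 494 on the immature arrays, and that of the macrophage markers 338 to 398 and 370 to 440. All 9 neutrophil markers fell, with sums of 248 to 455 and 742 to 885. Their part in these results was not tested. The Tgfbi window at chr13:56609336-56609635, plus strand, is shown for its 2 short Smad-binding motifs (CAGAC or its complement GTCTG), in capitals, which begin 239 and 85 bases before the start. CAGAC on either strand was in 3 of the 8 windows (Tgfbi, Tgfbr2 and the second of Tgfbr1) and in 49.6% of all.
Tgfbi: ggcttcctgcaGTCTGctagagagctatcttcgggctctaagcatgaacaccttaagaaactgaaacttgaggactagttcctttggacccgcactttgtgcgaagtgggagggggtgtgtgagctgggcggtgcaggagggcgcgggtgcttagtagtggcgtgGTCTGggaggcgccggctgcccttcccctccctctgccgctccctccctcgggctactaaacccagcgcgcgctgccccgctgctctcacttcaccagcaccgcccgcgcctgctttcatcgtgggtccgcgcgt

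**Figure D2:**
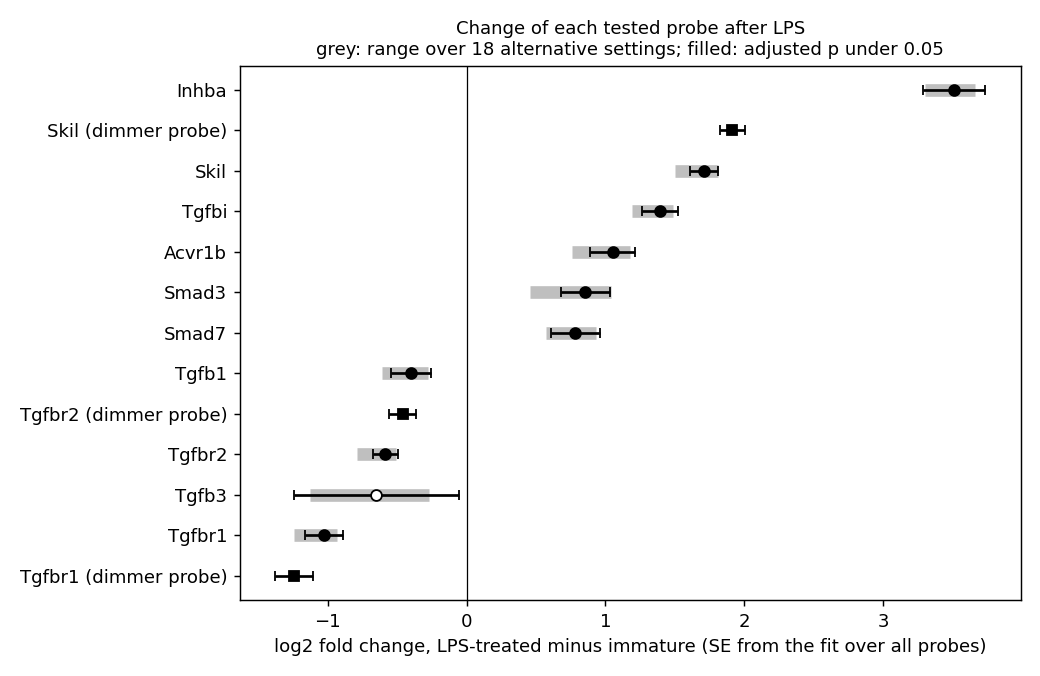
Log2 fold change, LPS-treated minus immature, of each of the 13 tested probes of the 10 genes. Circles are the brightest probe of a gene and squares a dimmer one, error bars are the SE (n = 4 per group), filled symbols passed an adjusted p of 0.05, and grey bands span the 18 alternative settings. Inhba lies far to the right at 3.51, and probes of 1 gene lie on the same side of 0.

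The rest of the pathway was read from a list of 71 further genes, also chosen with earlier results of these data known. Of the 71, 69 had a probe and 54 were tested. Of these 54, 21 rose, 9 fell and 24 did not pass, a called count of 30. Of all tested genes 56.1% were called, 31.4% upward and 24.7% downward. The list median was 0.25 log2 against 0.06 for all tested genes. The called counts by role were 7 up and 2 down of 15 ligands and activation proteins, 3 up and 0 down of 9 receptors, 7 up and 2 down of 17 Smads and regulators, and 4 up and 5 down of 13 targets.

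**Figure D3:**
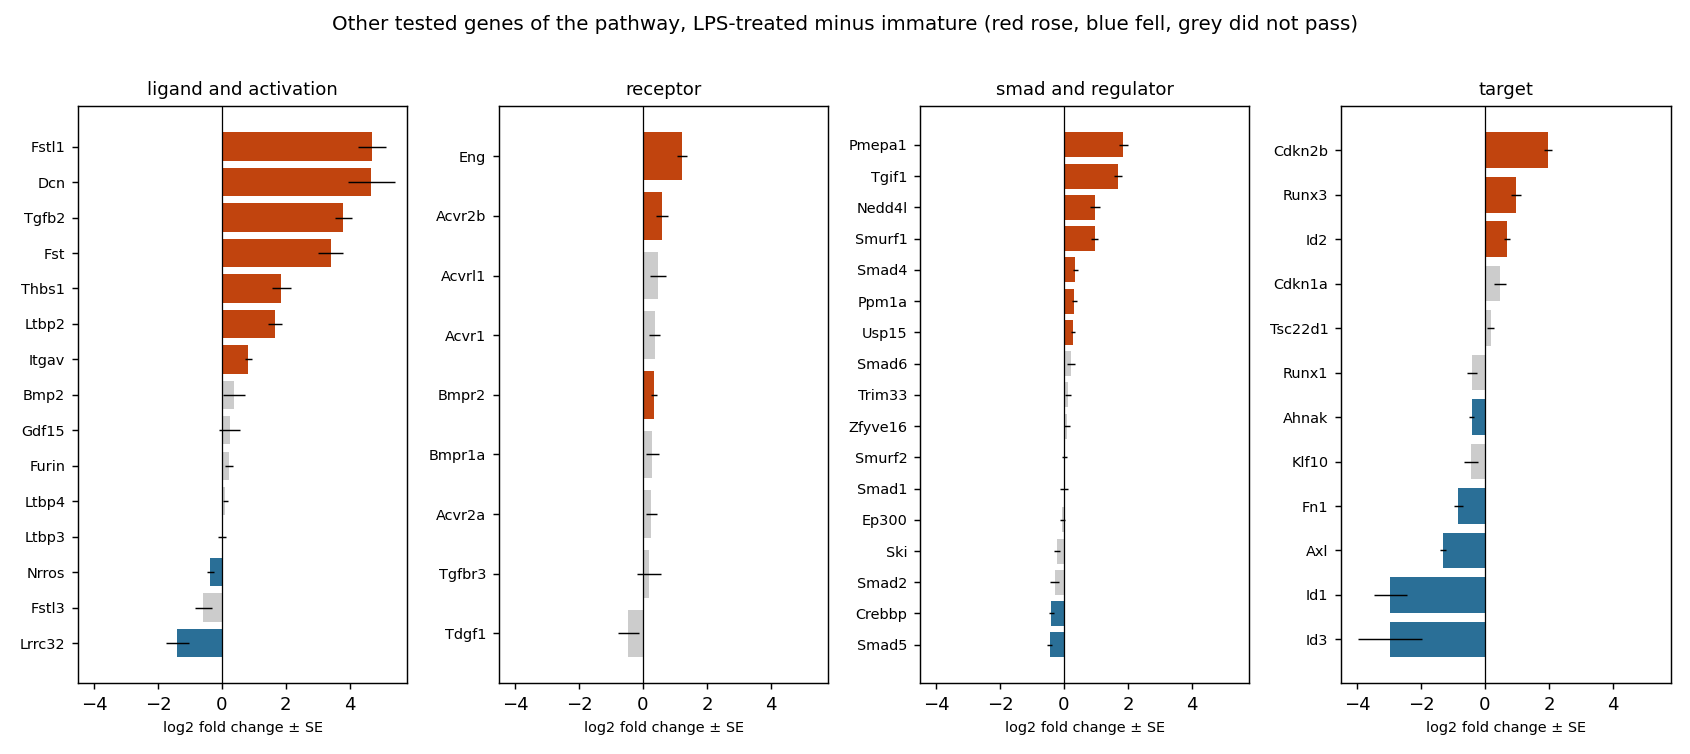
Log2 fold change, LPS-treated minus immature, of 53 of the 54 other tested pathway genes by role, with the SE (n = 4 per group). Red bars rose, blue bars fell and grey bars did not pass. Fstl1, Dcn, Tgfb2 and Fst have the longest bars among the ligands and binding proteins, that of Dcn being a fitted value against an immature group mostly not above background, and Id1 and Id3 lead the decreases among the targets.

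In the ligand and activation group, Fstl1, a secreted relative of follistatin, and Dcn, encoding decorin, a proteoglycan that binds TGF-beta, rose. Fstl1 had 2.55 to 4.19 on the LPS arrays and −2.13 to −0.47 on the immature arrays, a change of 4.69 ± 0.45 log2 (limma adjusted p = 6.73e-05) that was 4.03 with normexp. Dcn was above background on 4 LPS arrays and on 1 immature array, replicate 1. With each dim immature value raised to the lowest level called above background, Dcn was 10.0-fold higher after LPS. Its fitted change of 4.68 log2 (limma adjusted p = 0.000915) was 5.39 without immature replicate 1 and 1.67 with normexp. The 10.0-fold value is therefore not a lower bound, and the place of Dcn among the increases is not settled. The decreases were in genes for proteins that hold latent TGF-beta at the cell surface. Lrrc32 (GARP) fell by 1.39 ± 0.37 log2 (adjusted p = 0.0118) and Nrros, its counterpart in myeloid cells, by 0.36 ± 0.10 (adjusted p = 0.0164). The Nrros call was lost with the replicate number as a block (−0.36, adjusted p = 0.0525) and with replicates 1 and 2 averaged (−0.29, 0.11).

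The other ligand genes were singled out after their values were seen. Tgfb2, the remaining TGF-beta isoform, had 0.71, 0.77, 0.32 and 0.83 on the LPS arrays, against −3.63, −3.63, −2.64 and −2.66 on the immature arrays. It rose 13.9-fold, by 3.80 ± 0.27 log2 (limma adjusted p = 1.36e-05) or by 2.62 with normexp, and its other probe rose by 4.47 ± 0.44. The 3 TGF-beta ligand genes therefore gave a small fall, no call and a large rise. Fst, encoding follistatin, which binds and neutralises activin, had 2.66, 3.09, 3.37 and 4.30 on the LPS arrays, against 0.33, 0.59, −0.62 and −0.49 on the immature arrays. It rose 10.6-fold, by 3.40 ± 0.39 log2 (adjusted p = 0.000179), so Inhba and this antagonist gene both rose. Fstl3, encoding another relative of follistatin, did not pass (−0.58 ± 0.27 log2, adjusted p = 0.101). Thbs1, whose product thrombospondin activates latent TGF-beta, rose by 1.86 ± 0.30 log2 (adjusted p = 0.00104) and Ltbp2, a matrix protein of the latent TGF-beta binding family, by 1.66 ± 0.23. Other activin and inhibin subunit genes, Inhbb and Inha, were above background on 0 arrays.

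Fstl1, Fst, Dcn and Tgfb2 are also known from stromal cells. Of 7 stromal markers, 3 were tested: Dcn, itself in both lists, and Pdgfrb rose (Pdgfrb by 1.85 log2, or 0.88 with normexp) and Col1a2 did not pass (0.36 ± 0.61 log2, limma adjusted p = 0.643, and −0.27 without LPS replicate 1). Lum was above background on 3 LPS arrays and 0 immature arrays and Col1a1 on 1 and 3, while Col3a1 and Postn were above background on 0 arrays. The summed signal of the 7 markers was 0.804 to 1.59 times the 75th percentile on the LPS arrays and 0.215 to 0.416 times on the immature arrays. The sum includes Dcn, the brightest of the 7 on LPS replicates 2, 3 and 4 (−0.65, −1.46 and −0.04 log2). It is therefore not separate from the rise of Dcn. Their part in these increases was not tested.

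Among receptors, Eng, encoding the coreceptor endoglin, rose by 1.23 ± 0.17 log2 (limma adjusted p = 0.000399). Acvr2b, a type II receptor of activin, rose by 0.60 ± 0.18 (adjusted p = 0.0205), with overlapping groups. That call was lost when arrays were scaled by their median (0.42, adjusted p = 0.0638) or not scaled (0.39, 0.0825), and without LPS replicate 1 (0.0570) or immature replicate 1, 2 or 4 (0.0549, 0.0550 and 0.0529). Among Smads and regulators, Pmepa1, a target of TGF-beta whose product dampens Smad signalling, rose by 1.86 ± 0.14 (adjusted p = 1.96e-05) and 1.86 on its other probe, and the corepressor gene Tgif1 rose by 1.69 ± 0.13 (adjusted p = 1.96e-05). The ubiquitin ligase genes Smurf1 and Nedd4l, whose products act on receptors and Smads, rose by 0.96 ± 0.10 and 0.97 ± 0.17. Smurf2, in the same list, did not pass (0.01 ± 0.08, adjusted p = 0.953), and its 2 other tested probes gave 0.12 and 0.01. Smad4, the shared partner of the receptor Smads, rose by 0.35 ± 0.08, a call lost when arrays were scaled by their median (0.17, adjusted p = 0.100) or not scaled (0.14, 0.169). Smad2, the other Smad activated by TGF-beta and activin, and the inhibitor genes Ski and Smad6 did not pass (−0.30 ± 0.13, −0.21 ± 0.10 and 0.23 ± 0.12). Smad2 and Ski did pass as decreases with median scaling (−0.47 and −0.39) or no scaling (−0.50 and −0.42), Smad2 also with scaling to detected probes (−0.35) or without immature replicate 3 (−0.41), and Ski also with quantile normalization (−0.30) or without LPS replicate 4 (−0.28). Smad6 passed as an increase without immature replicate 3 (0.30). The BMP transducer gene Smad5 fell by 0.45 ± 0.08 (adjusted p = 0.00221), although its other probe gave 0.04 ± 0.19 and the mean of both did not pass (−0.20, adjusted p = 0.197). The coactivator gene Crebbp fell by 0.40 ± 0.08 (adjusted p = 0.00414).

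Target genes went both ways. Cdkn2b, the cell cycle inhibitor p15 that TGF-beta induces in epithelial cells, rose by 1.97 ± 0.13 (adjusted p = 9.04e-06) and by 2.0 ± 0.13 on its other probe. Id1 and Id3, inhibitors of helix-loop-helix factors that BMP induces, fell. Id1 had −1.59, −1.41, 0.63 and −0.11 on the LPS arrays, against 2.60, 2.82, 1.6 and 2.33 on the immature arrays, a change of −2.96 ± 0.51 log2 (limma adjusted p = 0.00143). Id3 had −2.31, −2.73, −2.29 and −2.66 on the LPS arrays, against 2.27, 2.51, −2.32 and −0.61 on the immature arrays. Immature replicate 3 was at the level of the LPS arrays for Id3, so the groups overlapped. The change of Id3 was −2.96 ± 1.00 log2 (adjusted p = 0.0332), −3.89 without immature replicate 3 (adjusted p = 0.00242) and −2.33 with normexp. Its call was lost without LPS replicate 1, 2, 3 or 4 (adjusted p = 0.0620, 0.0716, 0.0610 and 0.0685) or immature replicate 1 or 2 (−2.36 and −2.28, adjusted p = 0.0814 and 0.0774). Axl, a receptor kinase that TGF-beta induces in Langerhans cells and another gene singled out after its values were seen, fell by 1.31 ± 0.08 log2 (adjusted p = 8.81e-06).

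**Figure D4:**
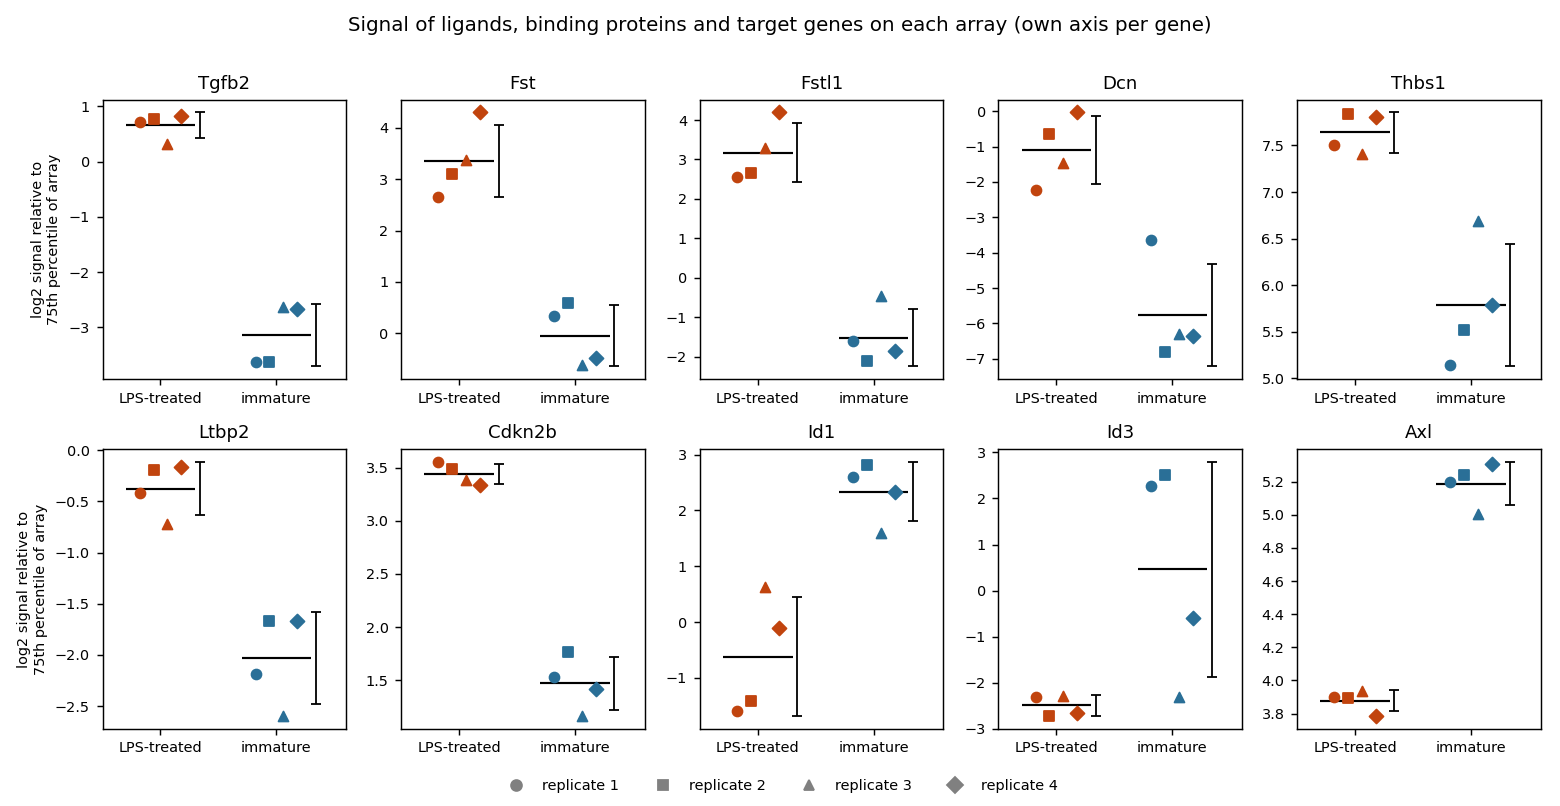
Log2 signal relative to the 75th percentile of the array for 10 ligands, binding proteins and targets on the LPS-treated arrays (left, red) and immature arrays (right, blue). Marker shapes give the replicate number, lines the mean and error bars the SD (n = 4). Id3 is spread widely among the immature arrays, and the groups overlap only for Id3.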

How the data were processed

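Single-colour Agilent arrays of 4 LPS-treated and 4 immature samples were used, and the labels give the groups. Per the labels' protocols, RNA was extracted with TRIzol and labelled using the Quick Amp chemistry of Agilent. The file headers say that deposited values are intensities read with Agilent Feature Extraction 11.0.1.1: a processed signal (background-subtracted, detrended, not scaled between arrays), raw spot and background medians, and other columns of flags of 0 or 1.

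Spots with an outlier flag were left out, log2 signals of a probe's spots were averaged, and each array's 75th percentile over 59305 spots was subtracted. Transcript accessions were matched to a RefSeq gene table (27509 of 55681 probes to 1 symbol). A gene's probe with the highest mean was tested if flagged well above background in every array of either group. Groups were compared with limma's lmFit and eBayes (limma 3.58.1, R 4.3.3), two-sided, with Benjamini-Hochberg adjustment over 12707 genes. A second fit covered 25943 probes. Precision is limited by the 4 arrays per group. The fit was tested on simulated data.

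Other scalings, normexp (offset 50), filters, probe means, a replicate block and leaving out each array were tried. Named by rule are all 10 genes, the 2 largest called rises and falls per role, and the 3 genes most like the top rise and fall. Outside this rule, Tgfb2, Fst, Fstl3, Thbs1, Ltbp2, Inhbb and Inha are named among the ligand and activation genes. So are Tdgf1, Smad2, Smad4, Smad6, Ski, Smurf1, Smurf2, Nedd4l, Axl, Runx3, Id2 and Fn1 among the other roles. The genes, lists and rule were chosen with earlier results of these data known. A gene picked by each of the last 2 parts of the rule is not reported here. Array coordinates are not used here, because the design is on another build than the annotation. Figures were drawn with matplotlib 3.10.9.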

Additional observations from a re-analysis of the deposited data

Results flagged for a closer look

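Within groups of 4, an array far from the other 3 was looked for on the 14 probes and 19 further genes, 66 groups in all, and 3 were found, where chance gives about 1 in 20. The brighter Tgfbr2 probe had immature replicate 3 above the other immature arrays, with a gap to the nearest of 0.854 of the group's range. Without that array Tgfbr2 fell by 0.51 log2 (limma adjusted p = 0.000346). The dim Smad3 probe, above background on 0 arrays, had LPS replicate 1 apart (0.835). Dcn had immature replicate 1 apart (0.844), the 1 immature array on which it was above background.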

How the results depend on the processing

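With no filter on dim probes, 10759 of 20887 genes were called (7124 of 12707 with it), and 25355 of 55681 probes (12906 of 25943 with it). More features were tested there. Of the 10 genes, 9 were called in the analysis as reported, and 8 or 9 under each alternative. Tgfb1 was not called with no filter (−0.40, limma adjusted p = 0.051), with replicates 1 and 2 averaged (−0.28, 0.199) or with the replicate number as a block (−0.40, 0.101), and ran between −0.50 and −0.33 with an array left out. Among the other results recomputed with the block, it changed the call of Nrros (adjusted p = 0.0525). Same-numbered arrays also lay in the same column of the slide, so a block by number is a block by column too. The labels give no other link between them. Their deviations from the group means correlated at 0.19, 0.02, 0.05 and −0.10, and 1 of 4 LPS arrays correlated best with its own number. The block gave 6606 called genes. Averaging replicates 1 and 2 gave 5425 and also lost Id3 (−2.31, 0.132), Acvr2b (0.48, 0.114), Nrros (−0.29, 0.11) and Ppbp (0.56, 0.12). A chosen part of the pathway and marker genes beyond the 10 was followed over the alternatives. Their result was the same in 728 cases, which include genes not called in either setting. A call was lost in 33 cases and gained in 9, and the direction reversed in 3. The reversals were Tdgf1 with the mean of its probes (0.59, adjusted p = 0.00163), Ski with normexp (0.05, 0.53) and Col1a2 without LPS replicate 1, with a range of −0.27 to 0.62 over the arrays left out; Ski and Col1a2 were not called there either. Signals near background (Dcn, immature Tgfb2) limit the size of their changes.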

Other observations

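Among genes of the list that were not called, Tdgf1, encoding the coreceptor Cripto, had probes in disagreement: the brighter gave −0.46 ± 0.33 log2 (limma adjusted p = 0.258) and the other 1.74 ± 0.24 (adjusted p = 0.000592 over all tested probes). Lrrc32 was highest in LPS replicate 3 (2.07) among the LPS arrays and in replicates 3 and 4 (3.24 and 3.43) among the immature arrays, the arrays on which Tgfb3 was highest too. Runx3 and Id2, transcription regulators that Langerhans cells need, rose by 0.96 ± 0.16 and 0.68 ± 0.09 log2 (adjusted p = 0.0012 and 0.000395), and the fibronectin gene Fn1 fell by 0.83 ± 0.14 (adjusted p = 0.00146).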
